A study of Homo sapiens with 2 samples.

Results

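The 10 mRNAs described here encode proteins of ErbB receptor signalling and of the feedback that limits it. They are the receptors EGFR and ERBB2, the ligands AREG, TGFA and NRG1, the MAP kinase phosphatases DUSP1 and DUSP6, and the inhibitors SPRY2, SPRY4 and SPRED1. Their clusters were taken as the rows of the deposited cluster table that carried one of these gene symbols. Such rows existed for 9 of the 10 genes, and they made up 651 of the 233546 clusters in the table. The table named 7698 genes in all. No row carried the symbol AREG or its Entrez gene ID.

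The clusters came from HITS-CLIP, in which proteins are joined to bound RNA by ultraviolet irradiation, 1 protein is immunoprecipitated, and the RNA fragments that come with it are sequenced. The protein was Flag-RBM47, a Flag-tagged wild-type RBM47 carried as a transgene and induced for 3 days by doxycycline at 1 ng/ml. The cells were MDA231-BrM2a, a non-clonal, brain metastatic derivative of the breast cancer cell line MDA-MB-231. There was a single group with 2 replicates and no control library is analysed here, so neither the background of the pull-down nor the abundance of each mRNA was measured. A high count may therefore reflect more RNA, more binding per RNA or both, and these cannot be told apart. Nothing in the labels says whether the replicates were separate cultures, so the spread between them may be technical.

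RBM47 is an RNA-binding protein with RNA recognition motifs. EGFR and ERBB2 are receptor tyrosine kinases. Amphiregulin, from AREG, and TGFα, from TGFA, bind EGFR, while neuregulin 1, from NRG1, binds the related receptors ERBB3 and ERBB4. Activated receptors feed the RAS, RAF, MEK and ERK kinase cascade. ERK activity in turn induces genes that act against it. DUSP1 is a nuclear phosphatase of MAP kinases, DUSP6 a cytoplasmic phosphatase selective for ERK, and the Sprouty and SPRED proteins restrain signalling between the receptor and RAF. Several of these feedback mRNAs are short-lived immediate early or delayed early transcripts, whose 3′UTRs often carry AU-rich elements.

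The cluster columns summed to 999047 tags for replicate 1 and 3489697 tags for replicate 2, where a tag is a unique mapped read. No deposited cluster had fewer than 5 tags or lacked tags from either replicate, so these sums are parts of the libraries and not their depths. Tags were counted in clusters of at least 10 tags where not stated otherwise, and a replicate's value is given per 1000 tags of its column. VIM, CD44, FN1 and AXL, which mark mesenchymal lines such as MDA-MB-231, held from 136 to 8404 tags, and bound RNA checks the label only in part. Of 6 epithelial and luminal genes, EPCAM had 11 tags and the other 5 had no cluster.

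EGFR carried most of the tags of the group, and the receptors, ligands and feedback genes beside it had very different numbers of tags. In clusters of at least 10 tags, 6 of the 10 genes had more than 100 tags, namely EGFR, SPRED1, DUSP6, DUSP1, NRG1 and TGFA. Of the genes in the group, 9 had any cluster. Across the table, 39.9% of genes with any cluster passed that level. SPRY2 and SPRY4 had 73 and 13 tags, and ERBB2 had no cluster of that size. Summed over the genes, the tags came to 1.66 ± 0.0522 (SD, n = 2) per 1000 tags of a replicate. The total of a gene grows with the length of RNA that is covered, so a larger total does not show a higher level. Genes were therefore compared per kb, of clusters or of annotated 3′UTR. Density per kb of clusters leaves out RNA without clusters, so it is no level of the whole RNA. By it SPRY4, with 1 cluster of 13 tags, had 210 tags per kb, near the 222 of EGFR.

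**Figure D1:**
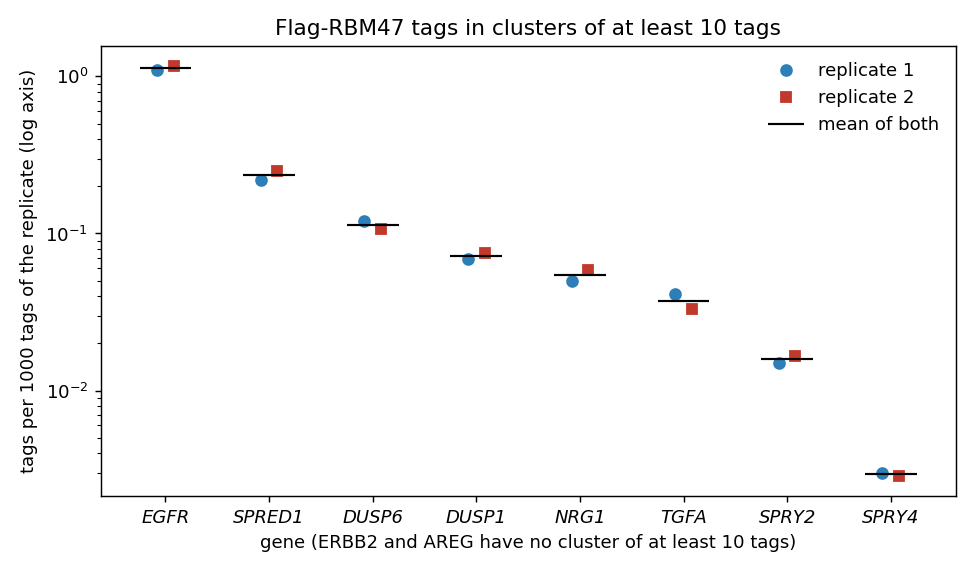
Tags per 1000 tags of the replicate in clusters of at least 10 tags, on a log axis, for each gene with such a cluster. Circles are replicate 1, squares replicate 2, and the line is their mean. The replicates lie close together for each gene, from 1.11 and 1.16 for EGFR to 0.00300 and 0.00287 for SPRY4.

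EGFR (Entrez 1956, chr7:55056171-55242662 in hg18 from its first to its last cluster, plus strand) held 390 clusters with 6569 tags, of which 170 clusters with 5102 tags passed the minimum. It had 1.11 tags per 1000 in replicate 1 and 1.16 in replicate 2. The mean was 1.13 ± 0.0367 (SD, n = 2). By its total of 5102 tags EGFR was at rank 60 of 5590 genes. Per kb of clusters it had 222 tags, which was rank 1520, against a median of 164 over genes. The high total of EGFR thus came with many clusters of ordinary density and a few very dense ones, which are described below.

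Per length of annotated 3′UTR, the genes were compared in tags per kb per 1000000 tags of the replicate, counting every cluster whose label included 3′UTR. DUSP1 had 101 and 103 in replicates 1 and 2. EGFR had 75.4 and 83.2, and DUSP6 had 59.5 and 52.5. These were followed by SPRED1 with 35.1 and 40.0, SPRY2 with 19.2 and 21.3, and TGFA with 11.5 and 9.30. At the low end, NRG1 had 1.14 and 1.04 and SPRY4 had 0.795 and 0.758. Neighbours in this order did not overlap between replicates, but NRG1 and SPRY4 rested on 46 and 13 tags only. DUSP1 and EGFR changed places when clusters that also spanned coding sequence were left out, at 70.0 ± 0.965 for DUSP1 and 71.7 ± 6.196 for EGFR (SD, n = 2), values that overlapped. By the authors' total tags per kb of annotated 3′UTR, DUSP1 with 455 was rank 367 of 4727 genes and EGFR with 364 was rank 502, against a median of 64.5. The counted DUSP1 clusters covered 1037 nt, more than its 3′UTR of 666 nt, since one also spanned coding sequence. Those of EGFR covered 2342 nt, against a 3′UTR of 6011 nt. With the 3′UTR label alone, DUSP1 had 306 and EGFR 331. DUSP6 with 240 and SPRED1 with 174 were at ranks 852 and 1213, and SPRY2 with 93.4 was at rank 1957. TGFA, NRG1 and SPRY4 lay below the median, at 43.9, 4.77 and 3.44.

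The genes separated into those with tags mainly over the 3′UTR and those with tags mainly in introns. Of the 6 genes with over 100 tags, 4 had more than 50% of them in clusters labelled 3′UTR alone, which was DUSP6, TGFA, SPRED1 and DUSP1. That was so for 63% of all genes with over 100 tags. The other 2 genes, EGFR and NRG1, had more than 50% of their tags in clusters labelled intron, as did 12.8% of all such genes. In both genes this would change if downstream clusters that carried no gene symbol were counted, as described below. The shares were 91.3% ± 1.78 of tags over the 3′UTR for DUSP6 and 90.4% ± 4.48 for TGFA (SD over replicates, n = 2). They were 89.7% ± 0.545 for SPRED1 and 62.6% ± 4.55 for DUSP1, where a further 30.4% lay in a cluster spanning the coding sequence and the 3′UTR. All tags of SPRY2 and SPRY4 in clusters of at least 10 tags were over the 3′UTR.

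EGFR had 50.9% ± 1.46 of its tags in introns, 38.9% ± 2.06 over the 3′UTR and 6.25% ± 0.0873 in coding sequence (SD, n = 2). The replicates gave 52.7% and 50.6% for introns and 36.6% and 39.5% for the 3′UTR. NRG1 had 81.7% ± 3.36 of its tags in introns. Over all genes with a symbol, 47.2% of tags were labelled 3′UTR and 18.6% intron. The 10 genes together had 51.3% and 38.2%, and without EGFR they had 77.8% and 11.0%, so EGFR set the intron share of the group at this minimum. With no minimum, the intron share was 51.2% in the 10 genes, 32.4% without EGFR and 27.5% over all genes. When the minimum was 30 tags, the order in EGFR turned, with the 3′UTR share 49.8 percentage points above the intron share.

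**Figure D2:**
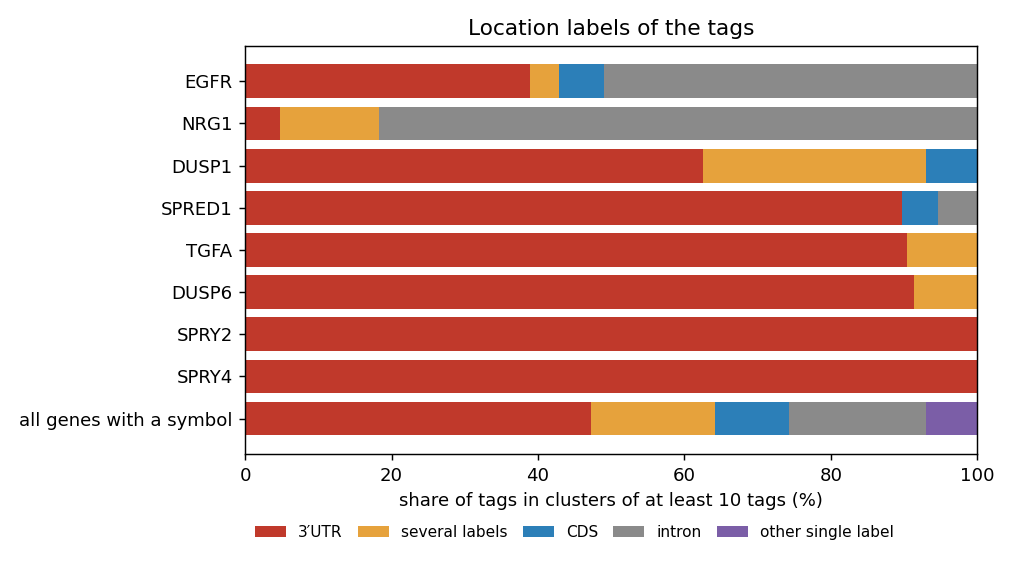
Share of each gene's tags by the location label of the cluster, in percent of tags in clusters of at least 10 tags, with all genes that had a symbol in the bottom bar. Introns hold 50.9% of the EGFR tags and 81.7% of the NRG1 tags, and the 3′UTR holds more than 60% in each of the other 6 genes, against 47.2% over all genes.

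The intron tags of EGFR lay almost wholly upstream of its first cluster in coding sequence. Among all deposited clusters, 343 of its 360 intron clusters came before the first cluster in coding sequence, which was 121 kb downstream of the first EGFR cluster. They held 97.1% of the intron tags, 96.9% in replicate 1 and 97.2% in replicate 2. That stretch is about as long as the first intron of the gene, which is 123 kb in the GRCh37 annotation. It had 32.2 intron tags per kb of gene, and the stretch from there to the terminal 3′UTR had 1.87.

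Within this stretch the clusters were small and spread out. The intron clusters had a median of 9 tags and a maximum of 82, and 213 of them had fewer than 10. The first 80 kb held 87.1% of the intron tags, in 297 clusters. The interval from 50 to 60 kb held the most, with 761 tags in 39 clusters, which was 17.5% of intron tags in replicate 1 and 19.1% in replicate 2. The largest intron cluster was in this interval, at chr7:55108033-55108432, with 17 and 65 tags in replicates 1 and 2. By intron tags in clusters of at least 10 tags, EGFR was at rank 32 of 1957 genes with any.

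**Figure D3:**
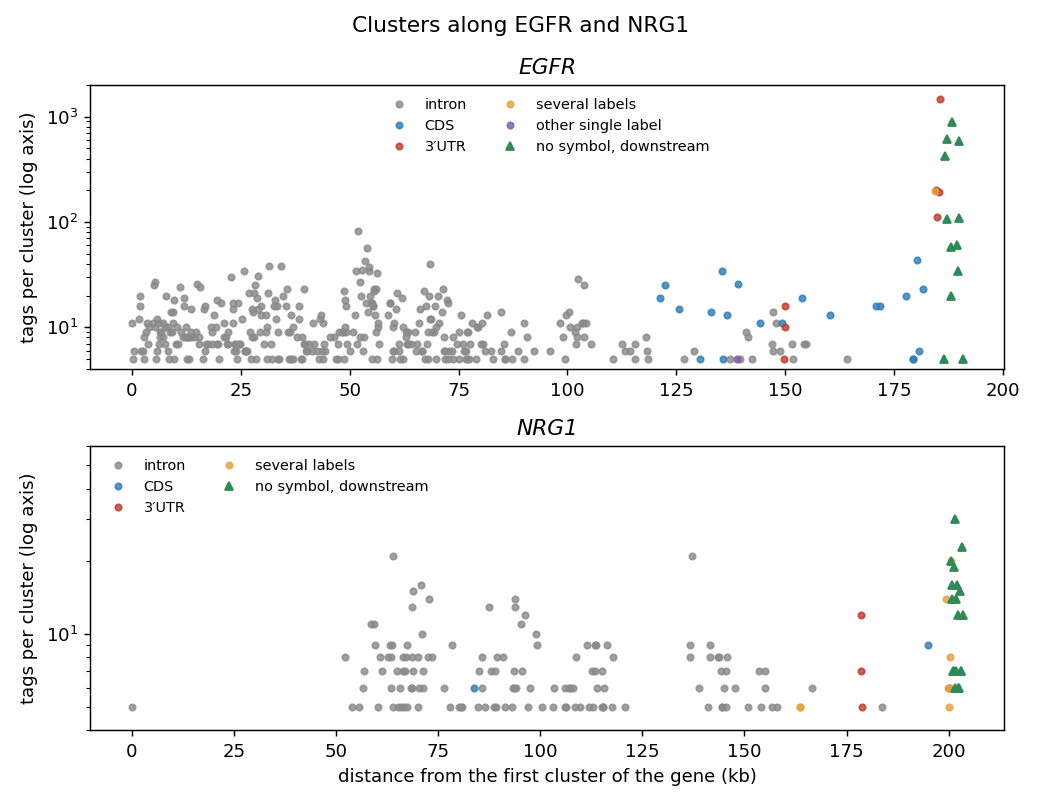
Tags per cluster, on a log axis, against distance from the first cluster of the gene in kb, for EGFR above and NRG1 below, with all deposited clusters shown and coloured by location label. EGFR intron clusters fill the first 121 kb with at most 82 tags each, while its terminal 3′UTR clusters reach 1455 tags; triangles are clusters that carried no gene symbol and lay downstream.

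Among all deposited clusters, the coding sequence of EGFR had 21 with a median of 15 tags, spread from 121 to 182 kb. The deepest had 44 tags, 8 in replicate 1 and 36 in replicate 2. Per kb of these clusters, again with no minimum, coding sequence had 150 tags and introns had 117, whereas clusters labelled 3′UTR had 977. On the same clusters, the ratio of 3′UTR to intron density was 7.02 in replicate 1 and 8.63 in replicate 2, a mean of 7.83 ± 1.14 (SD, n = 2).

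The densest EGFR clusters were at its 3′ end, where 5 adjoining clusters with 2159 tags ran from chr7:55240442 to 55242662. The first spanned the end of the coding sequence and the start of the 3′UTR and had 198 tags. The next 3 had 201, 111 and 194 tags. The last, at chr7:55241739-55242662, had 1455 tags, 304 in replicate 1 and 1152 in replicate 2, and was the largest cluster of any of the 10 genes. It held 27.5% of the EGFR tags in replicate 1 (95% Wilson interval 24.96 to 30.2) and 28.5% in replicate 2 (27.1 to 29.9), intervals that overlap and cover counting error only. Its density was 158 tags per 100 nt, against 36.0 to 74.7 in the 3′UTR clusters before it. A further 3 clusters labelled 3′UTR, with 31 tags, lay 150 kb into the gene, well before the terminal exon.

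The named EGFR clusters stopped within the 3′UTR as it is annotated. They spanned 2220 nt from the first terminal cluster, while the 3′UTR of the canonical transcript is 6011 nt in the GRCh37 annotation. Directly after them on the same strand came 12 clusters with no gene symbol, labelled as lying within 10 kb downstream of a gene, from chr7:55242661 to 55246910. They held 2907 tags, 569 in replicate 1 and 2352 in replicate 2. Named and unnamed clusters together spanned 6468 nt, of which clusters covered 98.5%, and held 5066 tags, 57.4% of them unnamed. In tags per 1000 they had 1.01 in replicate 1 and 1.17 in replicate 2, a mean of 1.09 ± 0.109 (SD, n = 2). The unnamed clusters were outside the rule that chose the genes and enter no value above. Counted as EGFR 3′UTR tags, they would bring it to 7999 tags and rank 28, with its 3′UTR share 28.6 percentage points above its intron share. They would also place it at 182 ± 18.2 (SD, n = 2) tags per kb of 3′UTR per 1000000 tags, above DUSP1. For the rank and for this comparison, unnamed clusters were added to EGFR alone, and other genes kept their named tags only.

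**Figure D4:**
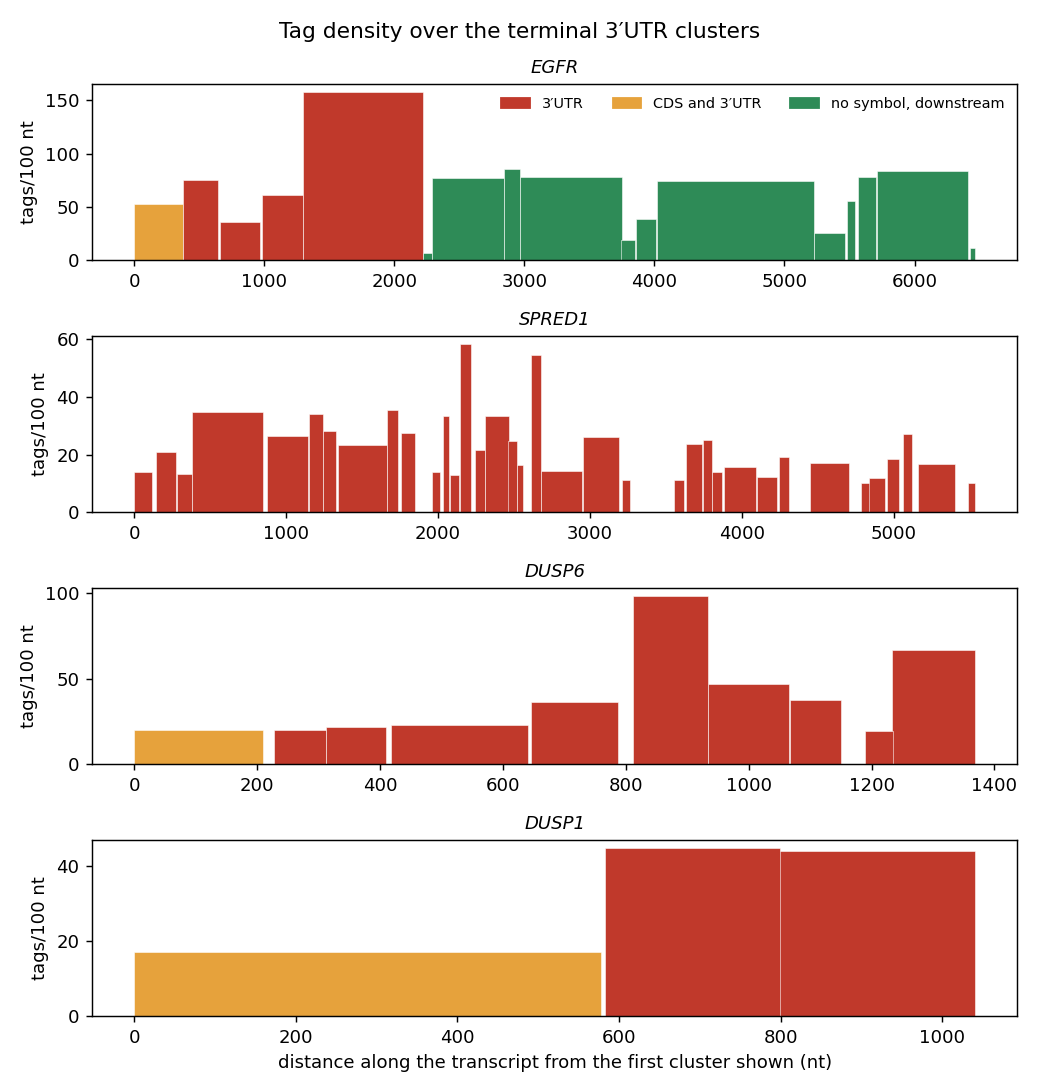
Tags per 100 nt of each cluster against distance along the transcript in nt, for the clusters over the end of EGFR, SPRED1, DUSP6 and DUSP1; the width of a bar is the cluster and each panel has its own axes. EGFR peaks at 158 tags per 100 nt and goes on through unnamed clusters to 6468 nt, DUSP6 peaks at 98.3 and DUSP1 is near 44 in both clusters labelled 3′UTR alone.

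ERBB2, the ErbB receptor that has no known ligand of its own, had a single deposited cluster (Entrez 2064, chr17:35138302-35138354, plus strand). It lay in the 3′UTR and held 2 tags from replicate 1 and 3 from replicate 2, the smallest total that the table lists. ERBB3 had 1 cluster of 6 tags and ERBB4 had none, so EGFR was the only one of the 4 receptors with a cluster of at least 10 tags. Whether ERBB2 mRNA was scarce or unbound in these cells was not tested.

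The ligands ranged from no cluster to the second largest number of clusters in the group. AREG had no cluster, and since the table lists only clusters above its minimum, no upper limit can be set for it. TGFA (Entrez 7039, chr2, minus strand) had 15 clusters with 196 tags, 9 of them with at least 10 tags. It had 0.0410 tags per 1000 in replicate 1 and 0.0332 in replicate 2, a mean of 0.0371 ± 0.00551 (SD, n = 2). Its clusters were spread along the 3′UTR, and the largest, at chr2:70529023-70529216, had 36 tags, 11 and 25 in replicates 1 and 2. The other large one, at chr2:70529934-70530115, had 30 tags, 7 and 23. No intron or 5′UTR cluster was deposited for TGFA.

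NRG1 (Entrez 3084, chromosome 8, plus strand) had 148 clusters with 1085 tags, but only 18 of them reached 10 tags and these held 23.1% of its tags. Its 134 intron clusters had a median of 6 tags and a maximum of 21. They were also gathered in part of the gene, since 106 of them, with 80.2% of the intron tags, lay from 50 to 120 kb after the first cluster. The share was 80.1% in replicate 1 and 80.6% in replicate 2. Over the 3′UTR, NRG1 had 46 tags in clusters of at least 10 tags, counting labels that included an intron or coding sequence. A further 19 unnamed clusters with 244 tags adjoined its last cluster downstream, and 11 of them with 191 tags passed the minimum. Like those of EGFR, they enter no value above. Counted as NRG1 tags, they would bring it to 442 tags, of which 205 are in introns, no longer more than 50%. They would also add to the 46 tags over the 3′UTR if counted there.

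The split between replicates gave its smallest p in NRG1. It had 0.288 tags per 1000 in replicate 1 and 0.234 in replicate 2 when all clusters were counted, and 0.05005 and 0.0582 in clusters of at least 10 tags. Replicate 1 gave 26.1% of all its tags (95% Wilson interval 23.6 to 28.8), against 22.0% over all gene tags. In a two-sided exact binomial test with Benjamini-Hochberg adjustment over all genes, this gave an adjusted p of 0.0714. Only clusters with at least 1 tag from each replicate are listed, which can raise the replicate 1 share of small clusters. Of the NRG1 clusters, 87.8% had fewer than 10 tags. How far the listing rule shaped this split was not tested. Intron clusters over the whole table had 24.1% of their tags from replicate 1, and those of NRG1 had 25.4% (22.8 to 28.2).

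The same test called 0 of the 9 genes as differing between the libraries, and 1 of them, NRG1, had an unadjusted p below 0.05. By comparison, 1.51% of all genes were called, and 10.5% had an unadjusted p below 0.05. The listing rule bears on these rates too, so they do not by themselves measure differences between the libraries. Of the 651 clusters 0 were called, against 0.0111% of all clusters, and 21 had an unadjusted p below 0.05, which is 3.23% against 3.04% of all. The median of the 651 clusters was 8 tags, and a cluster of that size was too small to be called whatever its split. For such clusters the test cannot show whether the libraries differed. The beta-binomial test, which allows for extra spread between libraries, also called 0 of the 9 genes and 0 of the 651 clusters, and over the whole table it called 6 of 7698 genes and 11 of 233546 clusters.

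Both MAP kinase phosphatases had dense 3′UTRs and few clusters elsewhere. DUSP6 (Entrez 1848, chr12, minus strand) had 12 clusters with 510 tags, 9 of them with at least 10 tags. It had 0.120 tags per 1000 in replicate 1 and 0.106 in replicate 2, a mean of 0.113 ± 0.00996 (SD, n = 2). At 395 tags per kb of clusters it was rank 448, the highest of the 10 genes. With a minimum of 30 tags EGFR stood higher, at rank 431 against 621 for DUSP6, as it did in replicate 1 alone, at 248 against 396. Its densest cluster, at chr12:88266405-88266526, had 119 tags, 29 and 90 in replicates 1 and 2, or 98.3 per 100 nt. The cluster nearest the 3′ end, at chr12:88265969-88266104, had 90 tags or 66.7 per 100 nt, while the 3 clusters after the one labelled both coding sequence and 3′UTR had from 20.0 to 22.9 per 100 nt. Between the cluster of 119 tags and that of 90 lay 3 clusters of 62, 31 and 9 tags, so the density of DUSP6 was uneven along the covered 3′UTR.

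DUSP1 (Entrez 1843, chr5, minus strand) had 6 clusters with 341 tags, 4 of them with at least 10 tags. It had 0.0691 tags per 1000 in replicate 1 and 0.0748 in replicate 2, a mean of 0.0719 ± 0.00405 (SD, n = 2). The adjoining clusters at the 3′ end, chr5:172127647-172127890 and chr5:172127889-172128105, had 107 and 97 tags, or 44.03 and 44.9 per 100 nt. The cluster labelled both coding sequence and 3′UTR had 99 tags but only 17.1 per 100 nt. A coding cluster had 23 tags, 2 from replicate 1 and 21 from replicate 2. In DUSP1 the densest clusters were thus the distal ones. Clusters closer than 50 nt, once merged, gave a single stretch with 92.9% of the DUSP1 tags and one with 81.4% of those of DUSP6.

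SPRED1, which recruits neurofibromin to the membrane and so favours inactive RAS, had clusters along the whole length of its 3′UTR. The gene (Entrez 161742, chr15, plus strand) had 65 clusters with 1258 tags, 37 of them with at least 10 tags. It had 0.220 tags per 1000 in replicate 1 and 0.249 in replicate 2, a mean of 0.234 ± 0.0202 (SD, n = 2). The 3′UTR clusters spanned 5537 nt, and the annotated 3′UTR is 5585 nt long. The largest, at chr15:36431559-36432028, had 163 tags, 24 and 139 in replicates 1 and 2. It held 15.1% of the SPRED1 tags, against 28.5% for the largest cluster of EGFR. When clusters closer than 50 nt were merged, the order turned, with 43.6% for SPRED1 and 42.3% for EGFR. The intron clusters of SPRED1 had at most 16 tags.

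The Sprouty genes had few tags. SPRY2 (Entrez 10253, chr13, minus strand) had 9 clusters with 106 tags, of which 4 clusters over the 3′UTR with 73 tags passed the minimum. They had 22, 24, 16 and 11 tags, and SPRY2 had 0.0150 and 0.0166 tags per 1000 in replicates 1 and 2. SPRY4 (Entrez 81848, chr5, minus strand) had 5 clusters with 36 tags, and only 1 passed, with 3 tags from replicate 1 and 10 from replicate 2. For both genes the counts in replicate 1 were too small for shares within the gene to be compared.

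The 3′UTRs of the 10 genes differed in base composition, given here for the canonical transcripts of the GRCh37 annotation. Uridine made up from 24.1% in ERBB2 to 37.7% in AREG, with 28.1% in EGFR and 36.1% in SPRED1. The median over genes with a 3′UTR cluster of at least 10 tags was 33.3%, and over all annotated genes 29.3%. The letters AUUUA, the core of AU-rich elements, were found on the transcribed strand in 9 of the 10 3′UTRs, which leaves only ERBB2 without a match. They were found in 92.3% of the 3′UTRs of genes with such clusters and in 67.6% of all. AREG, which had no cluster, had 15.1 matches per kb, the highest of the 10 genes, from 4 matches in 265 nt. EGFR had 1.497 per kb. Runs of at least 8 uridines were present in 4 of the 10 genes, namely TGFA, NRG1, DUSP1 and SPRED1, beside 58.3% of genes with such clusters and 32.9% of all annotated genes. Across 4727 genes, uridine share and tags per kb of 3′UTR had a Spearman correlation of 0.29, as a description across genes, which are not independent replicates. These matches are a description of the annotated 3′UTRs and not of the clusters.

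The pathway was viewed as a list of 58 genes by role, which includes the 10. Of these, 41 had a cluster and 22 had over 100 tags, which is 53.7% of those with a cluster, beside the 39.9% over all genes. Without the 10 genes, 16 of 32 had over 100 tags, which is 50%. Among 11 ligands, EREG and HBEGF, which also bind EGFR, had 235 and 139 tags, and 7 ligands had no cluster. Among the adaptors and kinases between receptor and ERK, the largest totals were those of NRAS with 1880 tags, PTPN11, a phosphatase that promotes RAS signalling, with 1483, and SOS1, a RAS exchange factor, with 868. In this role 8 of 20 genes had over 100 tags, and 16 of the 20 had a cluster. The MAP kinase phosphatase DUSP4 had 568 tags, while DUSP10 had 39 and DUSP5 had 21.

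Of 4 negative regulators that act at the receptor, 2 had over 100 tags, and 1 had no cluster of at least 10 tags. ERRFI1, an inhibitor of EGFR that is itself induced by its signalling, had 2613 tags. CBL, the ubiquitin ligase that marks EGFR for degradation, had 781 tags and CBLB had 55, all of them in introns. SPRED2 had 394 tags and SPRY1 had 48. The proteases that release ErbB ligands from the cell surface, ADAM10 and ADAM17, had 3073 and 1156 tags. Per kb of clusters, ADAM10 with 835 tags was rank 99 and NRAS with 509 was rank 260, both above all of the 10 genes in clusters of at least 10 tags.

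**Figure D5:**
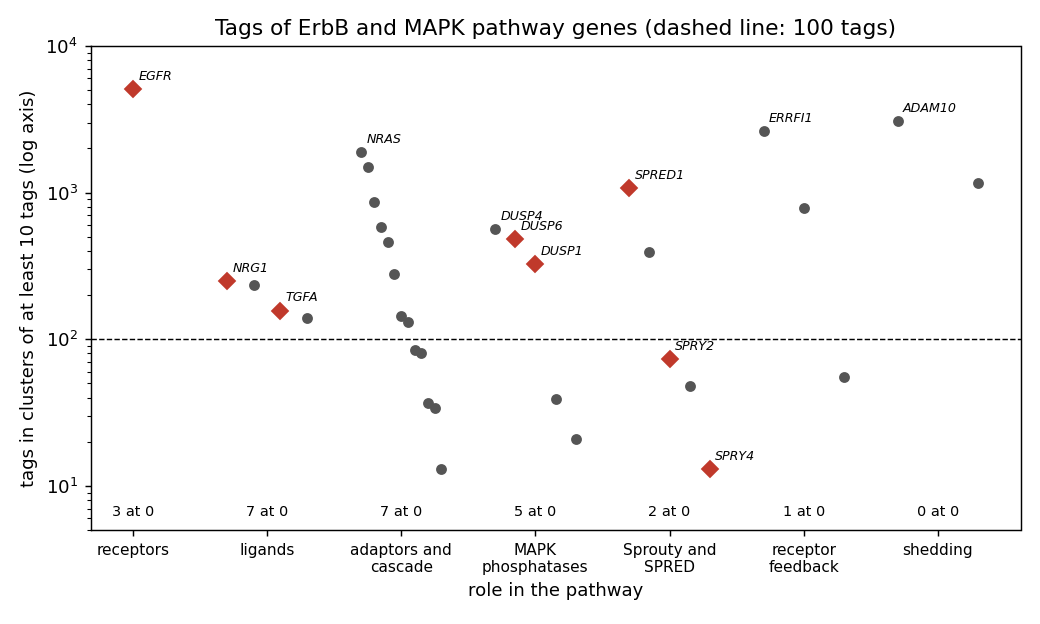
Tags in clusters of at least 10 tags, on a log axis, for each pathway gene by role; diamonds are the genes described here, circles other genes, and the dashed line is 100 tags. Genes without such a cluster are counted at the foot of each column. The totals are not corrected for length, and 22 of the 58 genes lie above the line.

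By the shares of its tags over the location labels, EGFR was most like FAR1, which encodes a fatty acyl-CoA reductase, FLRT2, which encodes a cell adhesion protein, and CLIP4 among 649 genes with at least 1000 tags. The total variation distance, the share of tags that would have to change label, was 3.45%, 4.29% and 4.58%. Their intron shares were 54.1%, 47.7% and 52.3%. In tags per kb of clusters, its neighbours in rank were IDE above and EIF1 below, and neither had an intron cluster of at least 10 tags.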

How the data were processed

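Flag-RBM47 was immunoprecipitated from irradiated cells in 2 replicates. The authors added poly(A) tails to the fragments and made cDNA from poly(dT) primers that carried a barcode of random bases. The barcode told unique cDNAs from PCR duplicates. The cDNA was sequenced on an Illumina instrument, and the reads were collapsed to unique tags and clustered on the Galaxy platform. The submitters' processing notes name Novoalign and hg18. The deposited table gives counts of tags in each cluster, per replicate and in total. The total was below the sum of the replicates in 14.6% of the 651 clusters. It was used for filters and shares of a gene, and the replicate columns for all replicate values. Coordinates are the deposited ones, and whether they count from 0 or 1 is not known.

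The 10 genes, the pathway list, the markers and the tests were chosen with earlier results of these data known. Genes were matched by symbol. Clusters of at least 10 tags and genes with over 100 tags follow the study's levels. At these levels 3071 genes passed here, which is more than the study reported, and the reason for the difference was not resolved. The named genes are the 10, the 3 others with most tags in each pathway role, the 3 most like EGFR in label shares and its neighbours in rank. Splits between replicates were tested with a two-sided exact binomial test, Benjamini-Hochberg adjustment and a threshold of 0.05 (scipy 1.17.1, pandas 2.3.3). On simulated counts for 7698 genes, 200 genes with at least 100 tags over both replicates were changed 2-fold in odds. The test recovered 87% of the raised and 78% of the lowered genes. The simulated counts had counting error only, so the recovery does not cover genes with fewer tags or extra spread between libraries. Intervals are 95% Wilson intervals. Lengths and letters of 3′UTRs came from the GENCODE annotation of GRCh37, with 98.4% of 4802 genes matched. Its build differs from that of the clusters, so no coordinate or cluster sequence was taken from it. Alternatives were other minimums, scalings, label rules, merging, each replicate alone and a beta-binomial test.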

Additional observations from a re-analysis of the deposited data

Results flagged for a closer look

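Clusters without a gene symbol next to the genes were not used in the comparisons. They held 2907 tags within 10 kb downstream of EGFR, 244 tags downstream of NRG1 and 5 tags downstream of DUSP1, each on the strand of the gene. The EGFR ones had 19.5% of their tags from replicate 1 (95% Wilson interval 18.1 to 21.0), and the named EGFR 3′UTR clusters had 20.2% (18.5 to 22.0). Which transcripts these tags came from was not tested.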

How the results depend on the processing

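No paired analysis was possible because the labels give a single group. The tags of the 10 genes per 1000 tags were 2.31 with no minimum, 0.949 with a minimum of 30 tags, 2.10 when scaled to clusters with a symbol and 1.72 when NEAT1 and MALAT1 were left out, and each replicate alone gave from 1.62 to 1.70. The 3′UTR share of their tags was 39.5% with no minimum, 77.2% with a minimum of 30, 56.5% with every label that included 3′UTR and 64.9% with the unnamed clusters downstream of EGFR, a setting chosen after seeing the data. With 1 replicate alone and 10 tags required in it, the share was from 55.0% to 81.2%, the number of the 10 genes with over 100 tags from 1 to 5, that of pathway genes from 6 to 20, the share of EGFR tags in its largest cluster from 31.3% to 58.2%, and its rank by tags per kb from 248 to 1285. The lower counts and the higher shares came from replicate 1, without replicate 2, since 10 tags are a stricter limit in the smaller library. The EGFR largest cluster held 22.1% with no minimum, 51.9% with a minimum of 30 and 42.3% after merging. Its rank was 1829 with no minimum, 431 with a minimum of 30 and 60 by tags. The 3′UTR share of EGFR minus its intron share was -12.0 percentage points. It moved to -31.0 with no minimum, and turned to 49.8 with a minimum of 30 and to 28.6 with the unnamed clusters. With 1 replicate alone it was from -3.18 to 63.4, where replicate 1 gave the higher value. DUSP1 minus EGFR in tags per kb of 3′UTR per 1000000 was 22.7, and turned to -1.70 with the 3′UTR label alone and to -80.1 with the unnamed clusters, both chosen after seeing the data. The split tests called 0 genes and 0 clusters of the group under each alternative run, and the adjusted p of NRG1 was from 0.0714 to 1. At the size of replicate 1, shares within SPRY2, SPRY4 and ERBB2 were not resolved.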
